A study of Rattus norvegicus with 20 samples.

Results

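Cultures of heart cells, labelled as neonatal rat cardiomyocytes (the cells that contract), were compared after 72 h with histidine and doxorubicin together and after 72 h with phosphate-buffered saline (PBS). The libraries were taken by their labels alone: 5 from cultures given histidine at 100 nM plus doxorubicin at 1 µM, and 5 from cultures given PBS, which makes 10 of the 20 libraries of the series. All genes entered, and 15449 of 15503 passed the filter on low counts. The other libraries came from histidine alone at 100 nM and doxorubicin alone at 1 µM, 5 each for 72 h, and the libraries with doxorubicin alone are used in the last section to show where the combination differed from the drug. The labels give no strain, sex or exact age, and nothing on pooling of hearts. The labels do not say whether the 5 libraries of a group were grown as separate cultures. The p-values here thus reflect only how far libraries spread within groups, which may be technical. One fit of all 20 libraries gave them, so the spread of the groups with histidine alone and doxorubicin alone enters as well. The question of the study was the effect of histidine on heart cells, alone or beside doxorubicin, and this comparison takes in both compounds at once.

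Doxorubicin is an anthracycline cancer drug that slides between DNA bases and holds topoisomerase II on cut DNA, which leaves double-strand breaks. Breaks activate p53, a transcription factor that stops the cell cycle through the inhibitor p21 and can start apoptosis, and the drug is known for its toxicity to heart muscle. Histidine is an amino acid that cells take up through transporters of large neutral amino acids and of glutamine, and it is the source of histamine and, with beta-alanine, of the dipeptide carnosine, a buffer and antioxidant of muscle.

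Total counts ran from 63561787 to 78204997 per library with PBS and from 58226690 to 71856131 with both compounds. Levels are given as CPM (counts relative to the library total) after scaling by trimmed means of M values (TMM), as mean ± SD over 5 libraries, and differences as log2 fold changes ± SE, positive where the level was higher with both compounds. A principal component analysis put 62.57% of the variance on its first axis, which set the PBS libraries at -77.76 to -71.83 against 73.34 to 76.51 with both compounds. The median coefficient of variation of a gene was 7.05% over the PBS libraries and 9.15% over the libraries with both compounds.

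The labelled cell type was checked against marker genes. Of 22 cardiomyocyte markers, 21 were tested, and in the PBS libraries they summed to 1150 to 1290 CPM, or 0.12% of counts, against 11.8% for 18 fibroblast markers. Per gene length, on the authors' FPKM scale, the PBS means were 109.7 for Tnnt2 (cardiac troponin T), 168 for Actc1 (cardiac actin) and 27.6 for Myh6 (alpha myosin heavy chain), against 6671 for Col1a1 (type I collagen) and 2373 for Acta2 (smooth muscle actin). Transcripts of heart muscle were thus present at low levels beside abundant transcripts of fibroblasts. Macrophage and leukocyte markers summed to 3760 to 3950 CPM, smooth muscle and pericyte markers to 8560 to 9990 CPM and endothelial markers to 209 to 232 CPM. In these whole-culture libraries, fewer cells of a type and less RNA of a gene per cell cannot be told apart, and no change below is assigned to a cell type.

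With both compounds, transcripts of dividing cells, of macrophages and of the sarcomere were lower, and transcripts of p53 targets and of several secreted factors were higher. In edgeR's quasi-likelihood test 6166 of 15449 genes (39.9%) passed an adjusted p of 0.05, 2968 higher (19.2%) and 3198 lower (20.7%). The counts of list members below are to be read beside these shares. At an unadjusted p under 0.05 there were 7280 genes (47.1%). With scaling by library totals alone the split was 3811 higher and 2669 lower. PBS and treated libraries were fully apart for 5871 genes (38.0%), 2714 higher (17.6%) and 3157 lower (20.4%), among them 2349 of the genes past the test as higher and 2786 of those past it as lower. The median log2 fold change over all genes tested was 0.014, with quartiles at -0.272 and 0.296. Most changes were small, since 3965 of the genes that passed moved by less than 2-fold. Large falls outnumbered large rises: of the genes that passed, 1254 were at least 2-fold lower (8.12%) and 947 higher (6.13%). At least 4-fold lower were 698 (4.52%) and higher 412 (2.67%), and at least 16-fold lower were 277 (1.79%) and higher 115 (0.744%).

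**Figure D1:**
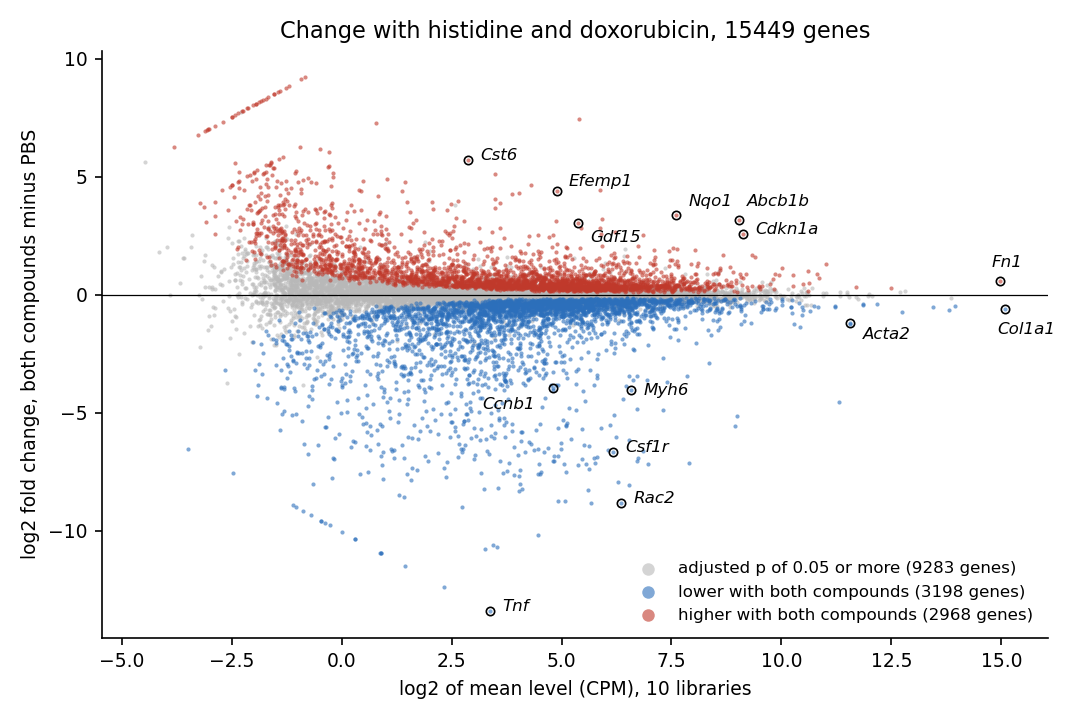
Log2 fold change of each tested gene (vertical axis, histidine and doxorubicin against PBS) by the log2 of its mean level in CPM over the 10 libraries (horizontal axis), with genes past the test in colour. Of the 6166 coloured genes, 2968 lie above and 3198 below 0, and the far falls reach lower than the far rises.

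**Figure D2:**
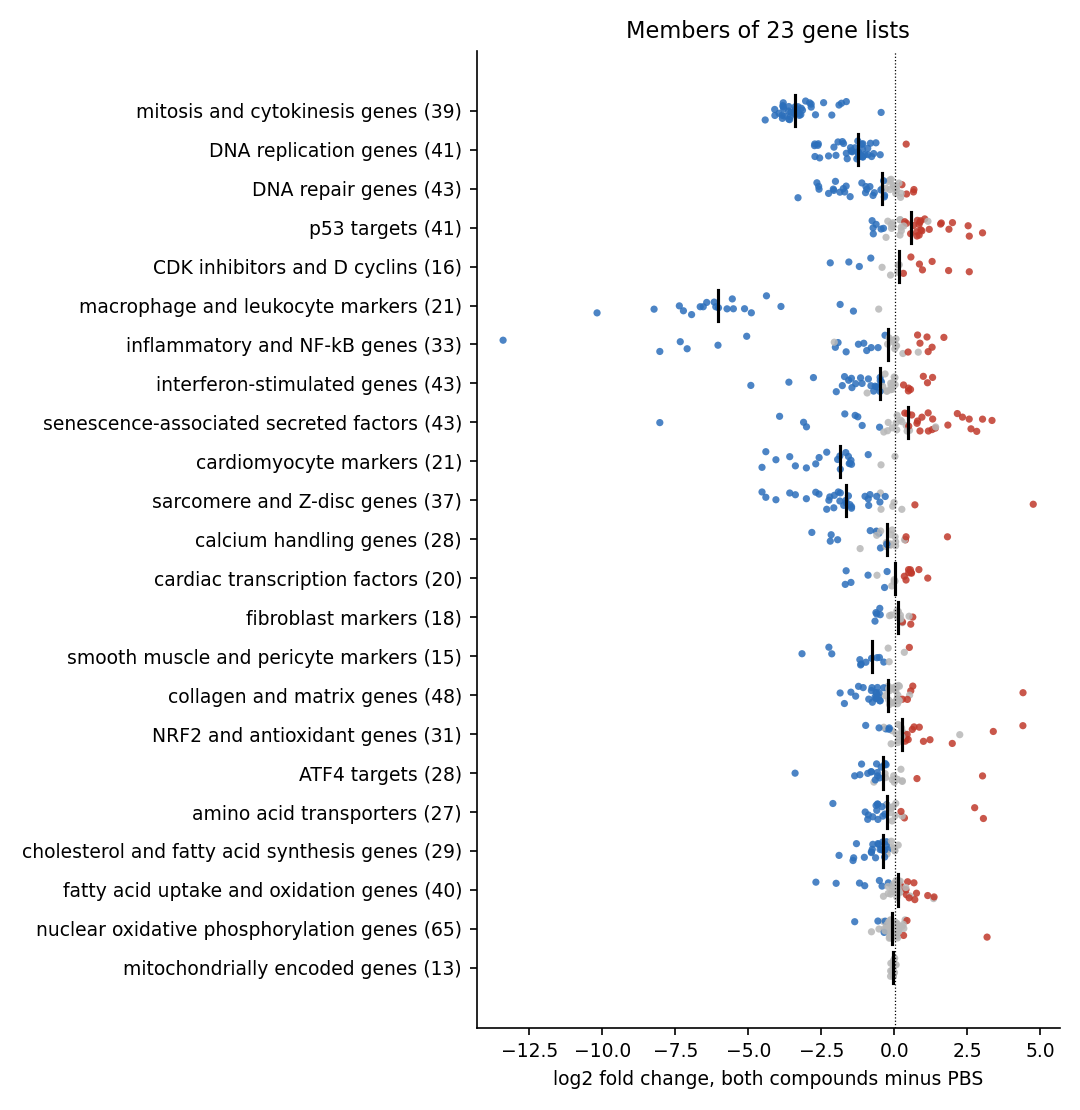
Log2 fold change (horizontal axis) of every tested member of 23 gene lists, one point per gene, in colour where the gene passed the test, with a bar at the list's median. All 39 mitosis genes lie below 0 with a median of -3.40, macrophage and leukocyte markers have a median of -6.02, and p53 targets a median of 0.56.

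Genes of mitosis and cytokinesis fell without exception. All 39 tested members of the list passed as lower, with a median log2 fold change of -3.40 against 0.014 over all genes, and their sum went from 1980 to 2090 CPM with PBS to 214 to 311 CPM with both compounds. Ccnb1, which encodes cyclin B1, the partner of Cdk1 at entry into mitosis, stood at 50.4, 53.9, 53.4, 55.9 and 50.9 CPM in the 5 PBS libraries and at 3.80, 3.34, 4.10, 2.60 and 3.29 CPM with both compounds. Every treated library was more than 10-fold below every PBS library for this gene, and the log2 fold change was -3.95 ± 0.16 (adjusted p = 2.39e-13). Cdc20, which activates the anaphase-promoting complex, stood at 55.97, 57.99, 56.5, 58.7 and 55.4 CPM with PBS and at 3.98, 4.02, 5.27, 2.35 and 4.38 CPM with both compounds (-3.83 ± 0.15). The cyclin-dependent kinase gene Cdk1 went from 61.9 ± 3.09 to 6.31 ± 1.18 CPM and the spindle checkpoint kinase gene Bub1 from 45.5 ± 2.63 to 4.57 ± 0.597 CPM. Mki67, the proliferation marker Ki-67, fell 12.3-fold to 14.9 ± 3.33 CPM. The smallest fall in the list was that of Ckap2, a spindle protein and p53 target (-0.45 ± 0.11). Both groups of libraries stayed apart for all 39 genes.

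Genes of DNA replication fell less far and almost as uniformly, with 40 of 41 lower, 1 higher and a median of -1.26. Their sum went from 1330 to 1360 CPM to 474 to 567 CPM. Mcm5, a subunit of the replicative helicase, stood at 59.03, 63.02, 68.6, 62.7 and 66.6 CPM with PBS and at 9.81, 8.53, 12.6, 7.37 and 10.2 CPM with both compounds (-2.72 ± 0.15, adjusted p = 1.53e-11). Its partner Mcm3 stood at 60.4, 55.7, 60.8, 59.4 and 59.8 CPM and at 16.9, 17.5, 18.4, 16.7 and 17.04 CPM (-1.77 ± 0.10). The primase gene Prim1 fell by 1.44 ± 0.07 and the polymerase gene Pold1 by 1.61 ± 0.10 on the log2 scale. The exception was Tyms, thymidylate synthase, which makes the thymidine nucleotide. Its level was 43.3, 44.4, 44.6, 44.8 and 46.9 CPM with PBS and 61.1, 68.7, 54.4, 58.9 and 54.7 CPM with both compounds, so every treated library was above every PBS library, with a rise of 0.41 ± 0.07. Of 43 DNA repair genes, 24 fell and 4 rose (median -0.41). The Fanconi anaemia genes Fanci and Fancb fell by 2.25 ± 0.14 and 2.07 ± 0.13, the recombination gene Rad51ap1 by 1.86 ± 0.12 and the damage-marking histone gene H2ax by 1.65 ± 0.09. The rises were in Xrcc1, the scaffold of single-strand break repair (0.68 ± 0.11), Xpc, the damage sensor of nucleotide excision repair (0.42 ± 0.07), Rad50, of the break-binding MRN complex (0.27 ± 0.08), and Gadd45a, a p53 target (0.66 ± 0.11).

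The promoters of 5 of these genes are shown because both lists share short motifs that are known from cell cycle promoters. In mitotic genes these are the CHR (TTTGAA) and the CCAAT box, and in replication genes the E2F site, searched as TTTCCCGC or TTTGGCGC. Each motif was searched on both strands, and none of them lies within another. The sequences are from RefSeq on the GRCr8 assembly, 250 bases before to 50 bases after the annotated start of the gene, 5′ to 3′ on the gene's strand, and capitals mark the matches: CHR and CCAAT in the first 3, E2F in the last 2. Ccnb1 lies at chr2:33655176-33655475 (minus strand), Cdc20 at chr5:137255750-137256049 (minus), Top2a at chr10:84473044-84473343 (minus), Mcm5 at chr19:13488563-13488862 (plus) and Mcm3 at chr9:30733697-30733996 (minus).
Ccnb1: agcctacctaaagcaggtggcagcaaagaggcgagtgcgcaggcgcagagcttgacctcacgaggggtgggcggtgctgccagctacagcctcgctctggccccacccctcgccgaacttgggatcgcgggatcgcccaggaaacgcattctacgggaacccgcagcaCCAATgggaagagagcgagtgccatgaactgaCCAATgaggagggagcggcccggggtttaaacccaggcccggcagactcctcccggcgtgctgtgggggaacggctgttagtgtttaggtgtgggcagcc
Cdc20: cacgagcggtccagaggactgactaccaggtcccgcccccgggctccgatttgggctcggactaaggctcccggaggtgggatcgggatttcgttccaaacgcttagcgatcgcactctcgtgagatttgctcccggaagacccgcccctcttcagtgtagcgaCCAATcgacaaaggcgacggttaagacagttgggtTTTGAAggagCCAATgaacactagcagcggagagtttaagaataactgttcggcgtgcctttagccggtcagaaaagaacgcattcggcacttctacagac
Top2a: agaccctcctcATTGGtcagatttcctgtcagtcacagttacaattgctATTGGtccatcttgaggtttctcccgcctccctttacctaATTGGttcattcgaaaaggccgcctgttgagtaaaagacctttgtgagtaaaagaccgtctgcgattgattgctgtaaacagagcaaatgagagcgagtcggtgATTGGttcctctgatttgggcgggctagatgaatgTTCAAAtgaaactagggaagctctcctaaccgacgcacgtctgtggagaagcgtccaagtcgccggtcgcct
Mcm5: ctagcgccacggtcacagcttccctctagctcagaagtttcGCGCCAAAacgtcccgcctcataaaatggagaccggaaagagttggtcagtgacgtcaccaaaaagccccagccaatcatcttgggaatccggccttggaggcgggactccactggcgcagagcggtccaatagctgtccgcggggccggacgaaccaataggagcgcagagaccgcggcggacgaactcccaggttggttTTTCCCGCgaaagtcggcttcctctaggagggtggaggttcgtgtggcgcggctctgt
Mcm3: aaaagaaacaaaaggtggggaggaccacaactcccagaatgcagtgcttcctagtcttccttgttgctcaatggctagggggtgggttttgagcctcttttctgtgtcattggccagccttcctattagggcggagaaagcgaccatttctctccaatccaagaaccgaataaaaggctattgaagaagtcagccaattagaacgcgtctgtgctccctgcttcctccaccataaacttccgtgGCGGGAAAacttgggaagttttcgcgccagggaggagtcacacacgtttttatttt

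Relative to the start of the gene, the Cdc20 promoter held a CHR at -51 between CCAAT boxes at -86 and -41, and the Top2a promoter a CHR at -22 with CCAAT boxes at -239, -201, -161 and -57. The Ccnb1 window held CCAAT boxes at -82 and -50 and no match to these CHR letters. Mcm5 had E2F matches at -209 and -8, and Mcm3 had a match at -6. Over the list, 25 of 31 mitosis genes with a promoter in the RefSeq table held a CHR (80.6%), against 18.1% of all 24206 promoters and 12.1% of those of tested genes. A CCAAT box was in 24 of the 31 (77.4%; 37.8% of all promoters), and an E2F match in 0 of 31. Of 31 replication genes with a promoter, 13 held an E2F match (41.9%, against 1.56% of all promoters and 3.01% of those of tested genes). A CCAAT box was in 18 (58.1%, against 37.1% of those of tested genes) and a CHR in 3 (9.68%). These matches describe the letters of the windows and are no evidence of binding.

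Genes that hold the cell cycle in check moved in both directions. Cdkn1a, which encodes the CDK inhibitor p21 and is a direct p53 target, stood at 146, 161, 176, 159 and 157 CPM in the PBS libraries and at 881, 816, 1044, 1003 and 1018 CPM with both compounds. The groups were far apart, and the rise was 5.95-fold (2.57 ± 0.11, adjusted p = 2.14e-13). Of 16 CDK inhibitors and D cyclins, 7 rose and 4 fell. The D cyclin genes Ccnd1 and Ccnd2, activators of the kinases of the G1 phase, rose from 143 ± 4.56 to 352 ± 38.01 CPM and from 377 ± 31.3 to 687 ± 43.00 CPM, and the p57 gene Cdkn1c rose from 1.80 ± 0.653 to 6.58 ± 0.268 CPM. The inhibitor genes Cdkn2c (p18, -2.19 ± 0.13), Cdkn2d (p19, -1.19 ± 0.16) and Cdkn1b (p27, -0.80 ± 0.11) and the retinoblastoma relative Rbl1 (-1.55 ± 0.16) fell.

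Of 41 p53 targets, 22 rose and 6 fell (median 0.56), and their sum went from 2330 to 2460 CPM to 5120 to 5590 CPM. Mdm2, the ubiquitin ligase that limits p53, stood at 118, 108, 114, 113 and 109 CPM with PBS and at 477, 525, 465, 464 and 133 CPM with both compounds. Replicate 5 with both compounds was near the PBS level while the other 4 libraries were about 4 times above it. The log2 fold change was 1.88 ± 0.32, and it was 2.10 without that library (adjusted p = 1.49e-06). Gdf15, a stress-induced secreted factor, rose from 7.79, 7.97, 7.78, 11.4 and 10.3 CPM to 69.5, 64.7, 81.2, 75.9 and 77.7 CPM (8.15-fold, adjusted p = 3.77e-12). Ephx1, which encodes microsomal epoxide hydrolase, rose from 33.8 ± 4.39 to 196 ± 28.2 CPM, and Eda2r, a death domain receptor of the TNF receptor family, from 17.2 ± 0.861 to 68.5 ± 8.04 CPM. The death receptor gene Fas rose by 0.86 ± 0.10, the antiproliferative gene Btg2 by 0.88 ± 0.07 and Sesn2, a stress-induced regulator of mTOR, by 0.78 ± 0.11. Among the 6 that fell were Sesn1 (-0.62 ± 0.11), Dram1, an autophagy regulator (-0.72 ± 0.10), Psrc1, a spindle protein (-0.72 ± 0.14), and Ckap2.

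Regulators of apoptosis did not move as a group, with 6 of 32 higher and 7 lower and a median of 0.00. With library totals as the scale the counts were 9 and 7. The survival gene Mcl1 rose from 171 ± 4.31 to 228 ± 2.65 CPM and the caspase-8 inhibitor Cflar by 0.48 ± 0.08. The BH3-only gene Bmf fell by 1.24 ± 0.10, the BCL2 relative Bok by 0.89 ± 0.13 and the inhibitor gene Birc3 by 0.79 ± 0.16 and Bcl2a1, a survival gene of leukocytes, also fell (-3.70 ± 0.45).

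Macrophage and leukocyte transcripts showed the deepest falls. Of 21 tested markers, 20 passed as lower and 0 as higher, with a median of -6.02, and Cd74, the class II invariant chain, did not pass (-0.53 ± 0.33). Their summed level went from 3760 to 3950 CPM with PBS to 208 to 241 CPM with both compounds, or from 0.385% to 0.0223% of counts. Csf1r, the receptor for macrophage growth factor, stood at 142, 145, 143, 146 and 138 CPM with PBS and at 1.34, 2.50, 1.59, 0.572 and 1.14 CPM with both compounds (-6.65 ± 0.27, adjusted p = 1.81e-13). Outside the list, Cybb, the catalytic subunit of the phagocyte NADPH oxidase, went from 211 ± 10.9 to 1.76 ± 0.457 CPM. Within it, Ptprc (the pan-leukocyte antigen CD45) went from 98.00 ± 20.8 to 1.14 ± 0.308 CPM and the lysosomal gene Cd68 from 78.2 ± 3.52 to 2.62 ± 0.598 CPM. Spi1, the master transcription factor of the myeloid lineage, fell from 43.7 ± 2.45 to 0.465 ± 0.113 CPM.

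The 12 largest falls were led by genes of white blood cells. Tnf, the inflammatory cytokine, stood at 18.7, 19.9, 20.1, 21.5 and 22.95 CPM with PBS and had 0 reads in all 5 libraries with both compounds, which makes it at least 2290-fold lower if the group's floor is set at 3 reads. Gna15, which encodes a G protein alpha subunit of haematopoietic cells, went from 10.1 ± 1.35 CPM to 0 reads, at least 1110-fold lower. Lst1 kept 3 reads, all in replicate 5 (ratio 2130, counting interval 729 to 10300), and the complement gene C1qb kept 12 reads, a ratio of 1240 (708 to 2390). Mrgprx3, a Mas-related G protein-coupled receptor gene, kept 4 reads, all in replicate 4 (ratio 1900, 744 to 6990), and the sialic acid lectin gene Cd33 kept 20 (ratio 315, 204 to 515). These intervals are exact Poisson intervals at 95% and, like the floor, cover counting error only. The others were the lectin genes Clec4a3 and Clec4a1, the leukocyte GTPase Rac2 (163 to 0.355 CPM), the receptor gene Tnfrsf14, the class II gene RT1-DMb and the fractalkine receptor Cx3cr1 (33.95 to 0.112 CPM). In all 12 the PBS and treated libraries were apart by construction of the rule that chose them.

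Inflammatory genes split. Of 33 inflammatory and NF-kB genes, 15 fell and 7 rose (median -0.23). Their summed level went the other way, from 2520 to 3670 CPM with PBS to 3910 to 4550 CPM with both compounds. Il1b (interleukin 1 beta), Ccl4 (a monocyte chemokine) and Il18 fell by 8.03 ± 0.60, 7.10 ± 0.48 and 5.05 ± 0.23. In the opposite direction, Il6 stood at 11.3, 10.3, 13.2, 10.2 and 8.44 CPM with PBS and at 79.1, 81.2, 82.1, 68.8 and 68.7 CPM with both compounds (2.83 ± 0.30, adjusted p = 1.80e-07), and Csf1, the ligand of the receptor that fell, rose from 282, 280.4, 338, 318 and 289 CPM to 972, 890.1, 1096, 952 and 997 CPM (1.70 ± 0.11). Neither gene had overlapping groups. The neutrophil chemokine gene Cxcl1 rose from 111 ± 15.3 to 273 ± 28.2 CPM and the adhesion genes Vcam1 and Icam1 by 1.12 ± 0.20 and 0.80 ± 0.11. The macrophage marker sum was lower in the same libraries, at 208 to 241 CPM against 3760 to 3950 CPM, and its part in these falls was not tested. Of 43 interferon-stimulated genes, 22 fell and 7 rose (median -0.48). The antiviral genes Mx1, Oas2 and Oasl fell by 3.61 ± 0.36, 2.77 ± 0.30 and 1.98 ± 0.13 and the deubiquitinase gene Usp18 by 1.70 ± 0.20. The exonuclease gene Isg20 rose by 1.14 ± 0.11, and the guanylate-binding genes Gbp4, Gbp5 and Gbp2 by 1.31 ± 0.11, 0.56 ± 0.07 and 1.00 ± 0.07, with some uncertainty among these close paralogs.

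Genes of heart muscle were lower. Of 21 cardiomyocyte markers, 19 fell and 0 rose, and Myl4 and Tbx5 did not pass. The median was -1.86, and the sum went from 1150 to 1290 CPM with PBS to 219 to 249 CPM with both compounds, or from 0.12% to 0.0231% of counts. Myh6, the alpha myosin heavy chain, stood at 201, 183, 160.1, 171 and 181 CPM with PBS and at 10.8, 8.62, 14.2, 8.70 and 11.7 CPM with both compounds (-4.05 ± 0.21, adjusted p = 7.28e-12). Its neighbour and close paralog Myh7, the beta chain, stood at 175, 159, 149, 149.7 and 171 CPM and at 7.04, 6.91, 6.24, 8.14 and 9.79 CPM (-4.40 ± 0.18). For both genes the lowest PBS library was more than 10 times above the highest treated library. Tnnt2 fell less, from 178, 166, 145, 168 and 164 CPM to 51.6, 48.9, 49.7, 50.4 and 59.2 CPM (3.16-fold), and Actc1 fell 6.44-fold from 275 ± 18.8 to 42.6 ± 5.59 CPM.

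Of 37 sarcomere and Z-disc genes, 30 fell and 2 rose (median -1.64). Titin (Ttn), the elastic filament, fell by 1.85 ± 0.14, and desmin (Des), the intermediate filament of muscle, by 2.24 ± 0.13. The rises were in Neb, the skeletal muscle thin filament ruler, which went from 0.384, 0.120, 0.159, 0 and 0.318 CPM to 5.05, 7.49, 3.51, 4.35 and 5.97 CPM (4.76 ± 0.48), and in Myh7b, a slow myosin gene of low level (0.71 ± 0.21). Neb stayed low per gene length, at a mean FPKM of 0.00574 with PBS and 0.169 with both compounds.

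Calcium handling and excitation genes moved in the same direction as the sarcomere in part. Of 28 calcium handling genes, 10 fell and 3 rose (median -0.26): the release channel gene Ryr2 went from 12.7 ± 2.48 to 3.32 ± 0.555 CPM, the calcium store protein gene Casq2 from 43.4 ± 5.33 to 9.71 ± 2.03 CPM and the calcium pump gene Atp2a3 from 4.0 ± 0.929 to 0.562 ± 0.245 CPM. The rises were in the calcium channel gene Cacna1d (1.83 ± 0.34), the junction protein gene Asph (0.41 ± 0.10) and the inositol trisphosphate receptor Itpr3 (0.39 ± 0.15, adjusted p = 0.0478). The Itpr3 call was lost in 8 of 10 fits with 1 library left out (adjusted p up to 0.105). Of 20 ion channel and gap junction genes, 9 fell and 3 rose (median -0.50). The inward rectifier gene Kcnj2 fell by 1.98 ± 0.11, the leak channel gene Kcnk3 by 1.41 ± 0.18, the regulatory subunit gene Kcne4 by 1.10 ± 0.08 and the connexin gene Gjc1 by 0.67 ± 0.08, while the mechanosensitive leak channel gene Kcnk2 rose by 1.72 ± 0.11 and the KATP channel subunit gene Abcc9 by 0.52 ± 0.15. Gja1, which encodes connexin 43, the main gap junction protein of the ventricle, did not pass (0.64 ± 0.82). Its level was 309, 9.13, 433, 342 and 328 CPM with PBS and 449, 473, 462, 412 and 424 CPM with both compounds, and PBS replicate 2 stood far below all others.

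Of 20 cardiac transcription factors, 9 rose and 6 fell, with a median of 0.01. Gata4, a factor of cardiomyocytes and cardiac fibroblasts, stood at 64.03, 65.2, 67.5, 70.8 and 65.8 CPM with PBS and at 97.9, 95.9, 108, 99.8 and 102 CPM with both compounds (0.59 ± 0.06), Mef2a rose by 0.55 ± 0.09, Tbx3 by 1.15 ± 0.12 and Hand2 by 0.50 ± 0.15. Myocd, the coactivator of smooth and cardiac muscle genes, fell by 1.68 ± 0.21, the muscle methyltransferase gene Smyd1 by 1.65 ± 0.35, Nkx2-5 by 1.48 ± 0.22 and Mef2c by 0.90 ± 0.16. Of 20 genes of the fetal heart and of remodelling, 11 fell and 6 rose (median -1.0), and the natriuretic peptide genes Nppa and Nppb were among those that fell. Nppa stood at 152, 136, 156, 153 and 145 CPM with PBS and at 46.4, 52.3, 57.04, 51.3 and 48.1 CPM with both compounds, and Nppb fell from 29.1 ± 4.01 to 4.90 ± 1.13 CPM. The chaperone gene Clu (0.93 ± 0.08) and the ubiquitin hydrolase gene Uchl1 (0.61 ± 0.11) rose. Of 24 genes near loci for atrial fibrillation, the arrhythmia that the series concerns, 10 fell and 6 rose, with a median of -0.04. They included Myh6 and the Z-disc gene Synpo2l (-2.11 ± 0.12) among the falls and Tbx3 and the ubiquitin ligase gene Neurl1 (0.95 ± 0.23) among the rises.

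Fibroblast and matrix genes moved moderately. Of 18 fibroblast markers, 5 fell and 3 rose (median 0.13; 4 and 5 with library totals as the scale, and 3 fell without PBS replicate 1 or 2 or replicate 3 with both compounds), and their share of counts was 11.8% with PBS and 10.6% with both compounds. Col1a1, the most abundant of them, stood at 40128, 41934, 40983, 43939 and 43081 CPM with PBS and at 27415, 23939, 26565, 29649 and 31102 CPM with both compounds, groups that did not overlap (-0.60 ± 0.13, adjusted p = 9.44e-04). Col1a2, its partner chain, fell by 0.63 ± 0.13, and the type III collagen gene Col3a1 by 0.48 ± 0.19 with overlapping groups and an adjusted p of 0.0492, a call lost in 8 of 10 fits with 1 library left out (adjusted p up to 0.114). Fn1, fibronectin, rose from 23352, 26143, 28639, 26381 and 25210 CPM to 38234, 37721, 40442, 37607 and 38306 CPM, with all treated libraries above all PBS libraries (0.57 ± 0.13). The small proteoglycan genes Dcn (decorin), a fibroblast marker, and Bgn (biglycan), of the matrix list, rose by 0.64 ± 0.19 and 0.28 ± 0.06. Collagen and matrix genes fell in 21 of 48 cases and rose in 5 (median -0.20). The wound matrix gene Tnc fell from 519.7 ± 47.3 to 159 ± 28.6 CPM, the elastic fibre gene Fbln5 from 474 ± 53.1 to 169.5 ± 46.9 CPM and the keratan sulfate proteoglycan gene Fmod by 1.22 ± 0.11, and Efemp1, a fibulin relative, rose from 2.65 ± 0.411 to 56.5 ± 9.10 CPM.

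Contractile genes of smooth muscle fell, 11 of 15 with 1 rise and a median of -0.77. Acta2, which also marks activated fibroblasts, stood at 4613, 4433, 3652, 4102 and 4286 CPM with PBS and at 1902, 1736, 1604, 2135 and 1952 CPM with both compounds (-1.18 ± 0.16, adjusted p = 5.09e-06). Calponin (Cnn1) fell by 2.14 ± 0.16, smoothelin (Smtn) by 0.97 ± 0.09 and the pericyte gene Rgs5 by 3.16 ± 0.37. Of 31 genes of TGF-beta and CCN signalling, 11 rose and 9 fell. The matricellular gene Ccn2 stood at 4504, 4202, 4320.5, 4134 and 4151 CPM with PBS and at 1814, 1677, 1438, 2204 and 1912 CPM with both compounds (-1.24 ± 0.14), and Ccn1 and Ccn3 fell by 0.59 ± 0.05 and 0.75 ± 0.09. The BMP antagonist gene Nog, the activin antagonist gene Fst and the coreceptor gene Tgfbr3 rose by 2.28 ± 0.28, 1.59 ± 0.15 and 1.3 ± 0.20. The activin subunit gene Inhbb, from the 12 largest rises, went from 11.96 ± 2.94 to 109 ± 22.7 CPM.

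Matrix proteases and their inhibitors moved both ways, with 12 of 32 higher and 8 lower. Mmp2, the gelatinase, stood at 1142, 1190.4, 1246, 1176 and 1203 CPM with PBS and at 2962, 2696, 3047, 3095 and 3041 CPM with both compounds, without overlap (1.32 ± 0.07, adjusted p = 1.07e-11). The aggrecanase gene Adamts5 rose by 1.60 ± 0.12 and the membrane metalloproteinase gene Mmp15 by 2.18 ± 0.25. Cst6, a cysteine protease inhibitor, had the largest rise under the naming rule, from 0.336, 0.0901, 0.491, 0.252 and 0.175 CPM to 13.04, 12.8, 21.7, 10.8 and 13.2 CPM (5.71 ± 0.35). The macrophage elastase gene Mmp12 fell by 3.11 ± 0.23, the urokinase gene Plau by 3.01 ± 0.17 and the cathepsin gene Ctss by 5.43 ± 0.25.

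Secreted factors that are associated with senescence were more often higher, 21 of 43 against 9 lower (median 0.46). Il6, Gdf15, Cxcl1 and Icam1 are among those that rose, with Igfbp4 (1.32 ± 0.10) and Igfbp5 (2.16 ± 0.23), which bind insulin-like growth factors, and Plau, Mmp12 and Il1b are among those that fell. Their summed level did not follow the count, at 7460 to 8950 CPM with PBS and 7050 to 7720 CPM with both compounds.

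Endothelial markers were low and divided, 6 lower and 3 higher of 13. Tie1, Esam and Pecam1 fell by 3.99 ± 0.57, 4.41 ± 0.38 and 2.14 ± 0.37, and the angiopoietin receptor gene Tek, the VEGF receptor gene Flt1 and endoglin (Eng) rose by 0.73 ± 0.15, 0.64 ± 0.12 and 0.26 ± 0.09. The call of Eng was lost in 2 of 10 fits with 1 library left out (adjusted p up to 0.0577). Of 12 epicardial and mesothelial markers, 4 rose and 3 fell. The uroplakin gene Upk1b rose from 1.25, 1.22, 1.80, 1.93 and 1.62 CPM to 29.5, 32.4, 33.8, 31.8 and 28.8 CPM, while the keratin genes Krt8 and Krt18 fell by 1.09 ± 0.27 and 2.08 ± 0.20. Of 9 Schwann and neuronal markers, 5 rose and 1 fell, with the tubulin regulator gene Stmn2 at 4.14 CPM with PBS and 8.37 CPM with both compounds and the neuregulin receptor gene Erbb3 lower by 3.32 ± 0.76. Both tested red blood cell genes rose from levels near 0. Slc4a1, the anion exchanger band 3, had 8 reads over the PBS group, all in replicate 4, and 536 reads with both compounds, for which the ratio was 69.0 (counting interval 35 to 160).

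Single genes of xenobiotic and oxidant defence rose strongly, while their lists moved both ways. Of 31 NRF2 and antioxidant genes, 12 rose and 5 fell (median 0.26; 3 fell without replicate 2 of both compounds). Nqo1, a quinone reductase, stood at 35.8, 30.3, 38.4, 34.3 and 29.2 CPM with PBS and at 338, 352, 411, 329 and 338 CPM with both compounds (10.5-fold, adjusted p = 9.85e-13). Aldh3a1, an aldehyde dehydrogenase, rose from 0.228 ± 0.122 to 4.96 ± 1.36 CPM, the autophagy adaptor gene Sqstm1 by 0.62 ± 0.08 and the glutathione transferase gene Gstp1 by 1.23 ± 0.12. Hmox1, heme oxygenase, a classical member of the list, fell from 129, 130.4, 191, 148 and 130.2 CPM to 102, 91.2, 107, 103 and 107 CPM (-0.52 ± 0.13), and the uncoupling protein gene Ucp2 and the glutathione reductase gene Gsr fell by 0.98 ± 0.11 and 0.28 ± 0.09. Of 23 genes of doxorubicin targets, transport and metabolism, 4 rose and 8 fell, and 5 fell without PBS replicate 3, 4 or 5 or replicate 4 with both compounds, and 4 without replicate 5 with both compounds. Abcb1b, a P-glycoprotein pump that exports the drug, stood at 106, 97.6, 113, 107 and 106 CPM with PBS and at 968, 962, 907, 951 and 914 CPM with both compounds (8.87-fold, adjusted p = 2.32e-13). Its paralog Abcb1a rose by 2.53 ± 0.20, a value that is uncertain because the gene model, chr4:25158362-25442709 in mRatBN7.2, spans that of Abcb1b on the same strand (chr4:25242798-25325199). For the same reason the levels and the rise of Abcb1b are uncertain. The phospholipid transporter gene Abcb4 of the same family fell by 2.20 ± 0.17. Its gene model (chr4:25151953-25209202) overlaps that of Abcb1a, so this value is uncertain as well. Top2a, the topoisomerase of dividing cells, stood at 197, 195, 183, 188 and 206 CPM with PBS and at 17.3, 24.9, 20.1, 12.6 and 14.5 CPM with both compounds (-3.44 ± 0.27). Top2b, the form in resting cells, fell by 0.22 ± 0.08 with overlapping groups and an adjusted p of 0.0469, and 8 of 10 fits with 1 library left out lost the call (adjusted p up to 0.125).

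**Figure D3:**
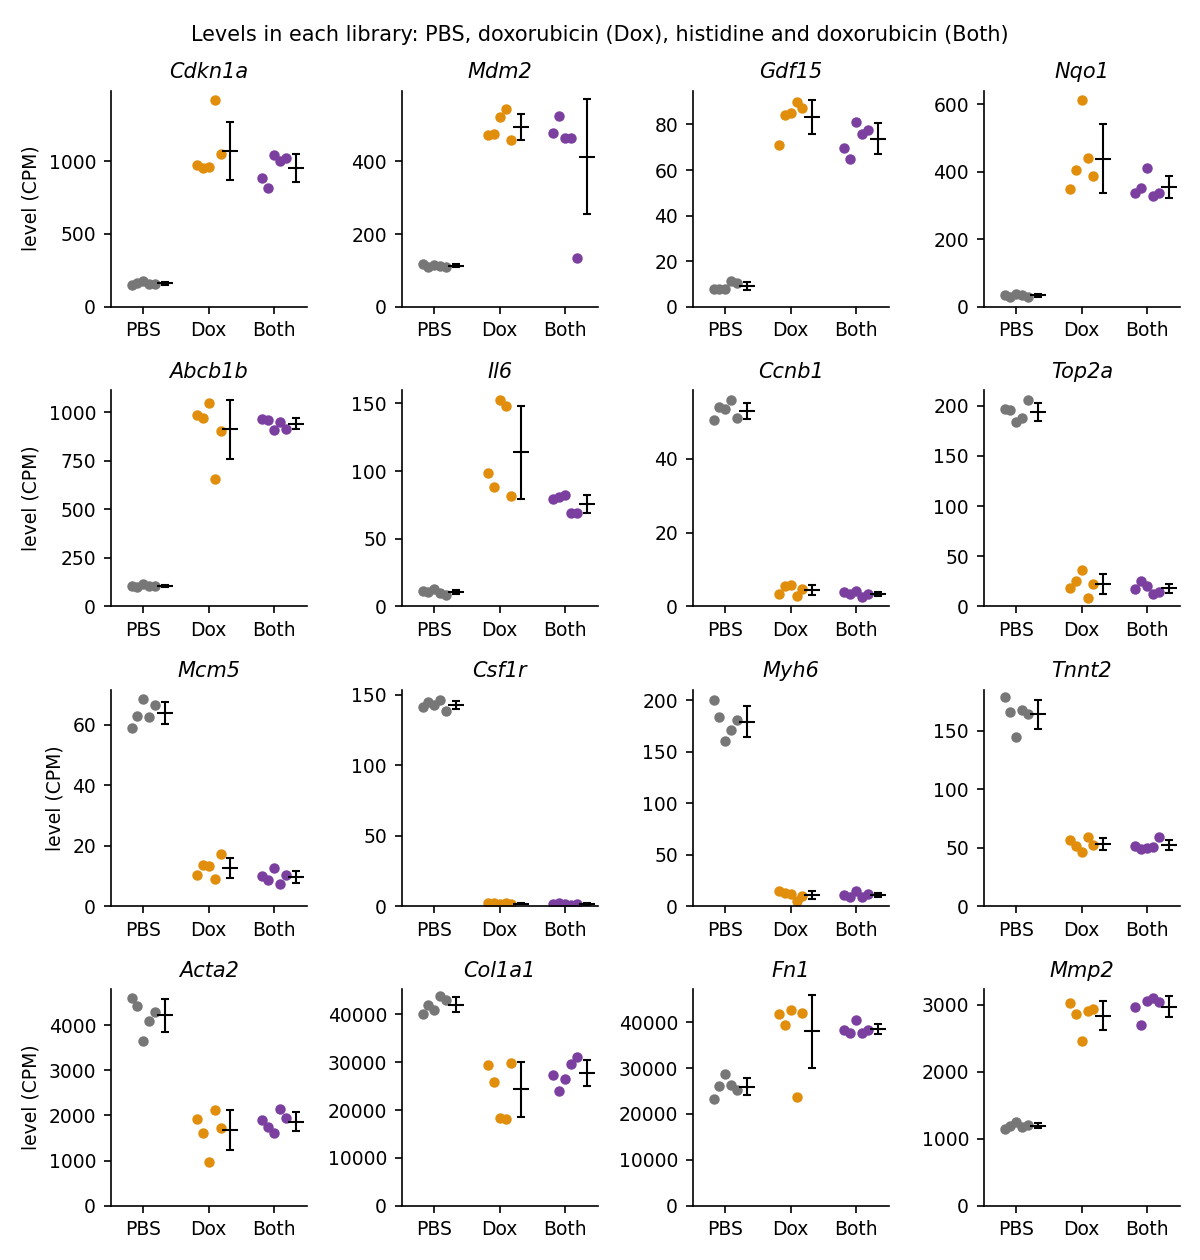
Levels of 16 genes in CPM (vertical axes from 0, 1 panel per gene) in the 5 libraries each of PBS, doxorubicin and both compounds, with points for libraries and bars for mean ± SD. Cdkn1a, Nqo1 and Abcb1b are higher and Ccnb1, Csf1r and Myh6 lower in every treated library than in every PBS library, and the libraries with doxorubicin lie beside those with both compounds.

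Among genes that handle histidine, 5 of 15 fell and 2 rose (median -0.22), beside 20.7% lower and 19.2% higher over all genes tested. Cndp1 and Cndp2, neighbouring genes for enzymes that cleave carnosine, both fell. Cndp1 went from 17.00, 15.1, 12.01, 13.1 and 13.9 CPM to 0.448, 0.232, 0.0780, 0.372 and 0.648 CPM (-5.30 ± 0.40, adjusted p = 1.66e-09) and Cndp2 from 131, 131, 134, 134 and 132 CPM to 76.03, 68.4, 77.7, 73.9 and 82.8 CPM (-0.81 ± 0.06). The peptide and histidine transporter gene Slc15a3, also expressed in macrophages, fell from 24.1 ± 1.97 to 0.988 ± 0.427 CPM, and the carnosine synthase gene Carns1 fell by 0.44 ± 0.14 with overlapping groups. The monoamine oxidase genes Maoa and Maob, of which the second oxidises methylhistamine, rose from 156 ± 13.98 to 272 ± 27.6 CPM and from 2.01 ± 0.719 to 6.39 ± 0.339 CPM. Hars1, the histidyl-tRNA synthetase, differed by -0.02 ± 0.05 (adjusted p = 0.792), at 78.2 ± 2.47 and 77.1 ± 3.32 CPM. Hdc, which makes histamine, was below 1 CPM in every library of both groups and did not pass (0.42 ± 0.83).

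Amino acid transporters mostly fell, 14 of 27 against 4 that rose (median -0.26). Slc7a5, the large neutral amino acid carrier that takes up histidine, stood at 276, 301, 274, 294 and 309 CPM with PBS and at 160.5, 143, 131, 170.3 and 171 CPM with both compounds (-0.91 ± 0.12). Its relative Slc7a8 fell by 2.10 ± 0.21 and the glutamine carrier gene Slc1a5 by 0.73 ± 0.08. Slc38a3, a carrier of glutamine and histidine, rose from 0.927, 0.601, 1.04, 0.583 and 0.127 CPM to 5.40, 4.94, 5.18, 4.95 and 6.93 CPM (3.06 ± 0.35), and stayed a minor transcript at a mean FPKM of 2.20 against 43.1 for Slc7a5. Of 28 targets of ATF4, the factor of the amino acid response, 16 fell and 2 rose (median -0.38). The serine synthesis gene Psat1 went from 108 ± 2.82 to 47.9 ± 2.31 CPM, the transcription factor gene Atf3 from 13.6 ± 1.80 to 1.28 ± 0.301 CPM and the proline synthesis gene Aldh18a1 fell by 0.60 ± 0.06. The rises were in Gdf15 and Sesn2, which are p53 targets as well.

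Among metabolic genes, those of sterol and lipid synthesis fell. Of 29 genes of cholesterol and fatty acid synthesis, 22 fell and 0 rose (median -0.40). The desaturase gene Scd went from 56.7 ± 12.3 to 15.3 ± 2.02 CPM, Fads1, another desaturase, fell by 1.39 ± 0.13 and the sterol carrier gene Stard4 by 1.29 ± 0.10. Of 40 fatty acid uptake and oxidation genes, 11 rose and 7 fell. Cpt1c, a brain-type relative of carnitine palmitoyltransferase, rose from 31.6 ± 1.84 to 70 ± 5.24 CPM and the lipid droplet gene Plin2 by 0.71 ± 0.07, and the fatty acid receptor Cd36 fell by 1.99 ± 0.25. Of 32 glycolysis and hypoxia genes, 14 fell and 1 rose (3 without PBS replicate 3, and 2 without replicate 2 with both compounds). The carbonic anhydrase gene Car9 fell by 1.77 ± 0.20 and Egln3, an oxygen sensor, rose by 0.86 ± 0.20. The 13 mitochondrially encoded genes all failed to pass, with a median of -0.04. Of 65 nuclear genes of oxidative phosphorylation, 3 rose and 4 fell (median -0.07), and with only the PBS and treated libraries fitted the counts were 4 and 17. Leaving out 1 PBS or treated library gave 1 rise in 6 of 10 cases and 2 falls in 7 of 10.

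Stress and signalling lists were mixed. Of 24 heat shock genes, 4 rose and 6 fell, and 9 rose and 3 fell with library totals as the scale. The cochaperone gene Bag3 rose by 0.64 ± 0.07 and the endoplasmic reticulum chaperone gene Hspa5 fell by 0.40 ± 0.05. Of 27 immediate-early genes, 10 rose and 8 fell, with Klf4 going from 57.8 ± 7.93 to 217 ± 17.5 CPM and Jun from 87.2 ± 4.58 to 47.8 ± 2.80 CPM. Of 38 autophagy and lysosome genes, 13 rose and 8 fell. The cathepsin genes Ctsz, Ctsl and Ctsd fell by 2.32 ± 0.14, 1.19 ± 0.14 and 0.51 ± 0.07, and the lysosomal glucosidase gene Gaa and the sterol carrier gene Npc2 rose by 0.53 ± 0.08 and 0.49 ± 0.07. Of 11 histone genes seen in this polyadenylated RNA, 5 fell and 3 rose. H2az1 fell from 161 ± 4.90 to 51.3 ± 2.89 CPM and the linker histone gene H1f3 rose from 9.38 ± 0.615 to 21.8 ± 0.657 CPM.

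The 12 largest rises held genes of several kinds. After Cst6, Pla2g2a, a secreted phospholipase of inflammation, rose from 3.17, 3.68, 9.06, 6.95 and 3.35 CPM to 106, 101, 185, 85.9 and 87.7 CPM (4.42 ± 0.61). Replicate 3 was the highest library in both groups for this gene. Pinlyp, a phospholipase inhibitor gene, rose from 1.24 ± 0.424 to 21.1 ± 2.41 CPM, the receptor kinase gene Ltk from 0.759 ± 0.296 to 11.8 ± 2.39 CPM, the desmosomal cadherin gene Dsc3 from 1.53 ± 0.988 to 22.7 ± 2.63 CPM, the glycosyltransferase gene Galnt13 from 1.62 ± 0.345 to 20.6 ± 3.19 CPM and Fam167a from 1.41 ± 0.443 to 12.4 ± 2.39 CPM. These 6 genes had means of 0.759 to 5.24 CPM with PBS. By absolute change in level the largest rises were in Fn1, Mmp2, Bgn, Ahnak, the complement gene C3 (1036 to 2062 CPM), Igf2r, Abcb1b and Cdkn1a. The largest falls were in Col1a1, Col1a2, Col3a1, the matricellular gene Thbs1 (13079 to 9159 CPM), Ccn2, Acta2, the actin crosslinker Flna and Ccdc80. For Ccdc80 all 10 fits with 1 library left out lost the call (adjusted p up to 0.108).

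Levels with the combination lay close to those with doxorubicin alone. No gene passed edgeR's quasi-likelihood test of both compounds against doxorubicin (0 of 15449, 0.0%). At an unadjusted p under 0.05 there were 1940 genes (12.6%), and this count depended on the fit. It was 767 of 15232 with only the 2 groups fitted and 787 of 15467 without doxorubicin replicates 3 and 4. Leaving out 1 library gave 1127 (doxorubicin replicate 4) to 2807 (doxorubicin replicate 1). The groups did not overlap for 163 (1.06%), DESeq2 called 22 genes (7 higher, 15 lower) and limma on log2 FPKM called 0. The DESeq2 calls ran from Chaf1b at 4.74 CPM with doxorubicin to genes of few reads, such as Il10 at 0.212 and Nlrc4 at 0.128 CPM. Among them ENSRNOG00000064482, ENSRNOG00000020492 and ENSRNOG00000025589 had log2 differences of 21.9, -33.3 and 28.1. The last 2 had not passed the filter on low counts. With 1 library left out edgeR called 0 to 6 genes: 6 without doxorubicin replicate 2, 4 without doxorubicin replicate 4, 2 without doxorubicin replicate 1, and 1 each without doxorubicin replicate 3 and without replicate 5 of both compounds. Among the 10801 genes with a mean of at least 5 CPM, the log2 difference had quartiles of -0.15 and 0.0953, and 94.9% lay within 0.5 of 0, with a median SE of 0.11. Both comparisons with PBS share the PBS libraries, so levels rather than correlations are given. The mean with doxorubicin alone was 1070.4 CPM for Cdkn1a (953 with both compounds), 439 for Nqo1 (354), 914 for Abcb1b (940.4), 4.48 for Ccnb1 (3.43), 1.76 for Csf1r (1.43), 10.7 for Myh6 (10.8) and 24311 for Col1a1 (27734). The log2 differences between both compounds and the drug were -0.17 ± 0.10, -0.31 ± 0.14, 0.04 ± 0.12, -0.39 ± 0.15, -0.31 ± 0.23, 0.01 ± 0.19 and 0.19 ± 0.13, and none passed. A p that misses the threshold does not show that the levels were equal.

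**Figure D4:**
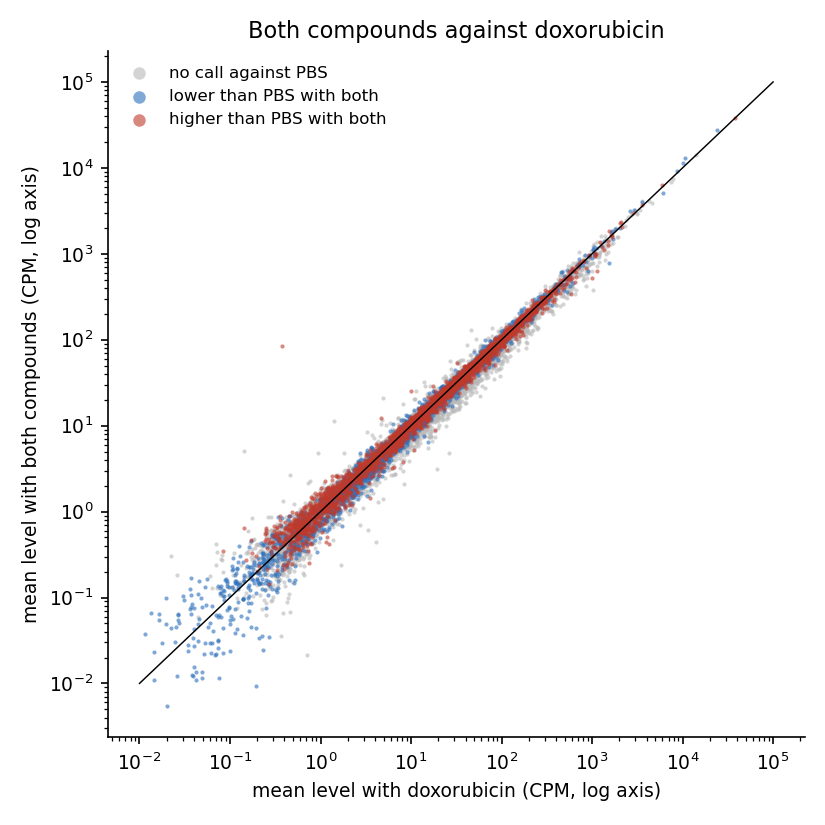
Mean level of each gene with both compounds (vertical log axis, CPM) against its mean level with doxorubicin alone (horizontal log axis, CPM), with the diagonal of equal levels. The 15420 genes drawn lie along the diagonal, 0 of 15449 tested genes passed the adjusted threshold, and 29 genes with a mean of 0 in a group are not drawn.

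The 5 genes with the smallest p in this comparison, none past the test, were Chaf1b, Prkaa2, Ly86, ENSRNOG00000023005 and Cdca2. As they were chosen by p in these libraries, gaps between the groups and passes in other fits are no independent support. Chaf1b, a subunit of the histone chaperone CAF-1, stood at 2.90, 2.76, 2.78, 2.88 and 3.52 CPM with both compounds and at 3.94, 4.15, 5.31, 5.91 and 4.40 CPM with doxorubicin (-0.68 ± 0.11, adjusted p = 0.0770). The groups did not overlap, and with PBS the gene stood at 11.4 to 14.3 CPM. Prkaa2, the catalytic alpha-2 subunit of AMP-activated protein kinase, an energy sensor, stood at 4.64, 6.0, 4.21, 5.18 and 4.77 CPM with both compounds and at 3.24, 3.15, 3.56, 3.68 and 2.70 CPM with doxorubicin (0.60 ± 0.10, adjusted p = 0.0770). It lay between the drug and PBS (6.04 to 6.55 CPM), with no overlap between the 3 groups, though narrowly below PBS (6.0 against 6.04 CPM). In edgeR it passed when doxorubicin replicates 3 and 4 were left out (log2 difference 0.71, adjusted p = 0.0322). Those libraries, at 3.56 and 3.68 CPM, were its highest with doxorubicin, so leaving them out widens the difference. Without those libraries Chaf1b had a log2 difference of -0.49 and an adjusted p of 0.189, and Ly86, ENSRNOG00000023005 and Cdca2 had adjusted p-values of 0.295, 0.330 and 0.235. On the second principal component doxorubicin replicate 4 lay at 107.9 and all other libraries between -18.95 and 9.035, so replicate 3 did not stand apart there. Ly86, a partner of a Toll-like receptor relative in B cells and macrophages, and ENSRNOG00000023005 had 0 reads in all 5 libraries with both compounds and means of 0.137 and 0.122 CPM with doxorubicin (adjusted p = 0.139 and 0.159). Cdca2, a mitotic phosphatase regulator, differed by -0.53 ± 0.10 (adjusted p = 0.167). DESeq2 called all 5, with adjusted p-values of 2.28e-05, 9.77e-05, 1.34e-05, 5.29e-05 and 0.0106 in the order given. It used the same counts from which the genes were chosen, so these calls add no independent support. For Ly86 and ENSRNOG00000023005 they rest on means of 0.137 and 0.122 CPM against 0 reads.

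Among the lists no member passed in this comparison, with or without doxorubicin replicates 3 and 4. Medians of the log2 difference are given as a description beside -0.00909 over all genes, and -0.000255 without those 2 libraries. Over all genes 8022 of 15449 lay below 0, and 7736 did so without those 2 libraries. Members of a list were measured in the same libraries, so their counts below 0 are no test. Mitosis genes had a median of -0.259, with 37 of 39 members below 0, and of -0.229 without those 2 libraries (36 of 39). Glycolysis and hypoxia genes were at -0.216 and -0.162 (27 and 29 of 32 below 0), and Schwann and neuronal markers at -0.279 and -0.254 (7 and 6 of 9). Senescence-associated factors (-0.346), macrophage markers (-0.299), nuclear oxidative phosphorylation genes (-0.36) and inflammatory genes (-0.212) were also lower in the median, and without those 2 libraries these medians were -0.101, -0.00652, -0.0272 and -0.0882. The p53 targets had medians of -0.0486 and 0.0177. Other lists had medians above 0. Smooth muscle and pericyte markers were at 0.15 and 0.0863 (4 of 15 below 0 in both fits). Collagen and matrix genes were at 0.115 and 0.00413 (11 and 23 of 48 below 0). Immediate-early genes were at -0.0854 and -0.143 (18 and 24 of 27 below 0). Not all of the 40 lists are given here.

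Lists of heart muscle went both ways. Cardiomyocyte markers were at -0.194 and -0.122, with 13 and 15 of 21 below 0. Sarcomere genes were at 0.0282 and -0.0357, calcium handling genes at 0.0571 and 0.0158 and ion channel genes at 0.0634 and 0.00256.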

How the data were processed

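Poly(A) RNA for 20 libraries was captured on oligo(dT) beads and copied from random hexamers without a step that marks strand, per the labels' protocols, so overlapping or antisense genes cannot be told apart and close paralogs are uncertain. The submitters' processing notes name Trimmomatic and mRatBN7.2. Which aligner, counter and annotation were used is not given in the sources used here. One table, as deposited, holds whole-number read counts per gene, without normalisation, and FPKM values that the authors scaled to gene length and library size, per the file headers. Coordinates of genes are the table's. Symbols came from the RefSeq gene table of GRCr8, used for names only: 10901 of 15503 genes got a symbol, 7690 by protein accession, 2862 by KEGG name, 204 by a symbol in the protein name and 145 by the protein name, and 476 were left out because the chromosome differed.

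Counts were filtered (filterByExpr), scaled by TMM and tested with the quasi-likelihood F test of edgeR 4.0.16 (R 4.3.3) in one fit of the 4 groups over 20 libraries, without a replicate block. Adjustment of p followed Benjamini and Hochberg over 15449 genes at a threshold of 0.05. The SE is the size of the log2 fold change over the square root of F. CPM levels are TMM-scaled. Alternatives used DESeq2 1.42.0 and limma 3.58.1 on log2(FPKM + 1) and log2(FPKM + 0.1). Replicates were checked for duplicates by a chi-square test, and each pair differed by more than sampling noise.

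Named genes are the 12 largest rises and falls among genes past the test with a mean of at least 5 CPM, groups apart and a symbol, the 8 largest rises and falls in CPM, up to 4 members per direction of each of 40 lists by smallest p, and a marker panel; where no gene passed, the 5 smallest p. Some genes that this rule names are not reported here. Cd74, Myl4 and Tbx5 and those in the last section were chosen after seeing their values. The comparison, the lists and the rule were chosen with earlier results of these data known. Promoters are from RefSeq (GRCr8), and a match is letters only.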

Additional observations from a re-analysis of the deposited data

Results flagged for a closer look

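A library was set aside for a closer look where its gap to the nearest of the other 4, divided by the range of the group, was above Dixon's critical value of 0.71. This was so for 42 of 434 groups of 5 levels of the genes named above and for 5 of 80 summed list levels, and chance gives about 1 in 20. The ratio of gap to range stands in parentheses after each level.

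Replicate 3 with both compounds was the highest library for Fn1 at 40440 CPM against 37610 to 38310 (0.753), Nog at 4.05 CPM against 1.97 to 2.56 (0.715), Cst6 at 21.7 CPM against 10.8 to 13.2 (0.783) and Nqo1 at 411 CPM against 329 to 352 (0.717). It was also the highest for Ucp2 at 132 CPM against 82.9 to 91.2 (0.83), Bag3 at 108 CPM against 96.2 to 99.1 (0.757) and Pla2g2a at 185 CPM against 85.9 to 106 (0.799). Replicate 3 with both compounds was the lowest for Myocd at 6.80 CPM against 8.83 to 9.18 (0.854), Rgs5 at 1.44 CPM against 3.80 to 4.61 (0.743) and Ccdc80 at 2635 CPM against 3173 to 3374 (0.728). Replicate 5 with both compounds was the highest library for Tnnt2 at 59.2 CPM against 48.9 to 51.6 (0.742), Lst1 at 0.0463 CPM against 0 (1), Usp18 at 14.1 CPM against 9.62 to 10.5 (0.806) and Abcb1a at 60.9 CPM against 41.4 to 46.8 (0.724). It was also the highest for Slc38a3 at 6.93 CPM against 4.94 to 5.40 (0.77) and Chaf1b at 3.52 CPM against 2.76 to 2.90 (0.811). Replicate 5 with both compounds was the lowest for Mdm2 at 133 CPM against 464 to 525 (0.846). Replicate 2 with both compounds was the highest library for Rad51ap1 at 3.08 CPM against 2.33 to 2.46 (0.833), Maoa at 321 CPM against 253 to 264 (0.845) and the sum of histidine, histamine and carnosine genes at 579.7 CPM against 533 to 542 (0.803). Replicate 2 with both compounds was the lowest for Xrcc1 at 44.7 CPM against 56.9 to 61.5 (0.727), Gadd45a at 42.9 CPM against 51.2 to 52.7 (0.847), Aldh18a1 at 96.4 CPM against 106 to 110.1 (0.715) and the sum of matrix proteases and inhibitors at 7407 CPM against 8035 to 8243 (0.751). It was also the lowest for the sum of genes near atrial fibrillation loci at 1262 CPM against 1679 to 1747 (0.859). Replicate 4 with both compounds was the highest library for Cdkn2d at 6.40 CPM against 4.18 to 4.82 (0.714) and Mrgprx3 at 0.0572 CPM against 0 (1). Replicate 4 with both compounds was the lowest for Cflar at 23.8 CPM against 26.9 to 27.7 (0.811). Replicate 1 with both compounds was the highest library for the sum of calcium handling genes at 1398 CPM against 1337 to 1348 (0.822).

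Replicate 3 with PBS was the highest library for Il1b at 44.8 CPM against 28.4 to 33.1 (0.714), Uchl1 at 39.5 CPM against 32.8 to 34.6 (0.73), Tgfbr3 at 15.3 CPM against 9.64 to 11.2 (0.728) and Ctsd at 651 CPM against 624 to 629 (0.817). Replicate 3 with PBS was the lowest for Mrgprx3 at 19.3 CPM against 23.2 to 24.6 (0.745), Synpo2l at 6.18 CPM against 7.39 to 7.55 (0.885) and Col1a2 at 16580 CPM against 17680 to 17910 (0.831). Replicate 1 with PBS was the highest library for Il18 at 16.3 CPM against 12.7 to 13.8 (0.718) and Ltk at 1.28 CPM against 0.540 to 0.691 (0.796). Replicate 1 with PBS was the lowest for H2ax at 79.2 CPM against 92.0 to 96.0 (0.766) and Ccdc80 at 4046 CPM against 4246 to 4308 (0.763). Replicate 5 with PBS was the highest library for Slc7a8 at 23.2 CPM against 20.1 to 20.8 (0.764). Replicate 5 with PBS was the lowest for Cdkn1b at 50.5 CPM against 57.7 to 59.9 (0.764) and Myl4 at 2.45 CPM against 3.04 to 3.18 (0.803). Replicate 2 with PBS was the lowest for Mcm3 at 55.7 CPM against 59.4 to 60.8 (0.722) and the sum of heat shock genes at 7260 CPM against 7472 to 7542 (0.753). Replicate 4 with PBS was the highest library for Slc4a1 at 0.106 CPM against 0 (1). Replicate 4 with PBS was the lowest for Icam1 at 114 CPM against 121 to 123 (0.768).

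For Mdm2 the log2 fold change was 1.88 ± 0.32 with replicate 5 of both compounds and 2.10 without it. The levels of Lst1, Mrgprx3 and Slc4a1 rest on 3, 4 and 8 reads of 1 library. What sets these libraries apart was not tested.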

How the results depend on the processing

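For both compounds against PBS, 6166 genes passed in the reported fit. Other scalings and filters gave 6170 (factors of DESeq2), 6480 (library totals, 3811 higher and 2669 lower), 6162 (no filter) and 5593 (a stricter filter), fits with fewer libraries gave 7471 (the 2 groups), 7655 (without doxorubicin replicates 3 and 4) and 7443 (without all 5 doxorubicin libraries, chosen after seeing the data), and DESeq2 gave 6461. With 1 library left out the counts were 5640 to 5871, 2662 to 2804 higher and 2967 to 3067 lower. Tested against a 2-fold change (edgeR's glmTreat), 1345 genes passed, 448 higher and 897 lower. Same-numbered PBS and treated libraries had correlations of deviations of -0.0766 to 0.017, and 0 of 5 treated libraries correlated best with the PBS library of their own number. Against doxorubicin, treated replicates 3, 4 and 5 correlated best with their own number (0.0454, 0.037 and 0.042), and replicates 1 and 2 did not (-0.00265 and 0.0499). With values this small, the check cannot decide whether the replicate numbers pair the libraries. With the replicate number as a block 6237 genes passed, 5972 of them shared with the reported fit. For both compounds against doxorubicin, where 0 genes passed, library totals gave 2 (1 higher, 1 lower), leaving out doxorubicin replicates 3 and 4 gave 2 (1 higher, 1 lower), DESeq2 gave 22 (7 higher, 15 lower), the block gave 0 and single libraries left out gave 0 to 6 (0 to 1 higher, 0 to 6 lower). The cause of these differences was not tested. Of 6043 values of named genes under alternatives, 5908 kept their side of the threshold and 135 kept their direction and missed it. A change of sign with a pass in either fit occurred in 0 cases. Changes of sign where neither fit passed were not counted apart. Those that missed the threshold included Ccdc80, Top2b, Ndufs8, Col3a1, Ndufb6, Slc7a2, Thy1, Ndufs4, Itpr3, Abcc4, Taldo1, Fap, Hsp90b1, Eng, Wt1 and Hspa1a. Of 1520 counts of list members, 55 moved by over 1.5 times, in 11 lists. Genes with 20 reads or fewer in a group have fold changes limited by depth, and the labels name no batch, so none could be checked.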

Other observations

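Long noncoding RNA genes passed as higher more often than as lower. Of 876 tested long noncoding RNA genes, 22.1% passed as higher and 9.93% as lower with both compounds against PBS, with a median log2 fold change of 0.228. Of 14288 protein-coding genes, 19.3% passed as higher and 21.5% as lower, with a median of 0.007. The split of all genes moved with the scaling, to 3811 higher and 2669 lower with library totals, and the difference between the classes was not tested. Of the 1429 protein-coding genes with the longest genomic spans 25.8% passed as higher and 22% as lower, and of the 1429 with the shortest 12.5% and 14.6%. Those among the longest with at least 5 CPM had 19.4% higher and 27.2% lower. Genes of low counts have less chance to pass, and these shares describe the genes without a test.

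Libraries of 1 group differed widely in some genes. In 43 genes with PBS and in 47 with both compounds the highest library was at 20 CPM or more and at least 10-fold above the lowest, and in 31 of the 43 and 22 of the 47 a single library lay at least 10-fold from the nearest of the other 4. Gja1 was at 9.13 CPM in PBS replicate 2 and at 309 to 433 CPM in the other 4 PBS libraries. Cav1, which encodes caveolin 1, was at 12.8 CPM in replicate 2 of both compounds and at 477 to 580 CPM in the other 4. Only 1 of these 47 genes passed the test against PBS. That gene, ENSRNOG00000067655, was at 419 CPM in replicate 3 of both compounds and below 1 CPM in the other 9 libraries of the comparison. Its log2 fold change of 7.45 ± 1.77 (edgeR, adjusted p = 0.0021) fell to -0.07 without that library (adjusted p = 0.929). These genes were chosen after their values were seen.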
